A study of Caenorhabditis elegans with 2 samples.

Results

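The regions described here are candidate binding regions of GFP-tagged C38D4.7 at divergent promoters, where a protein-coding gene on each DNA strand starts close by and the genes run away from each other. A nuclear region of the authors' pooled list was a member when its summit, the point of highest signal, lay between 1000 bp upstream and 200 bp downstream of gene starts on both strands. Regions with a summit within 200 bp of a tRNA, snoRNA, snRNA or rRNA gene were left out. This gave 1007 members of 29979 nuclear lines in a list of 30000 lines, and 80 of the members were also in the authors' optimal list, which held 629 nuclear lines. In 1005 of the 1007 members the 2 nearest starts were head to head, and in the other 2 the genes overlapped at their starts. The members named 842 gene pairs.

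The data are chromatin immunoprecipitation followed by sequencing (ChIP-seq) from whole late C. elegans embryos of mixed sex, aged 4 hours, synchronised by bleaching. The strain was OP708, which carries the unc-119 allele tm4063 and the transgene wgIs708. That transgene encodes C38D4.7 fused to the tags TY1, EGFP and 3xFLAG and also restores unc-119(+). Tagged protein was precipitated with an anti-GFP antibody. There were 2 biological replicates of this 1 group, and neither an untagged strain nor a second condition was used here. Every comparison below is therefore between sets of regions, with no test between groups of samples, and its 95% intervals cover counting over regions only. Whole embryos were used, so the cells in which a region was bound were not resolved, and whether the regions are specific to C38D4.7 was not tested.

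The RefSeq annotation calls C38D4.7 a C2H2-type domain-containing protein, and many proteins with such zinc fingers bind DNA through short sequences. In the compact worm genome many neighbouring genes begin back to back, and the short stretch between their starts has to hold the promoters of both. A summit there cannot be given to one gene rather than the other. Many worm mRNAs also receive a spliced leader, which removes the first part of the transcript, so an annotated start can lie downstream of the place where transcription begins.

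The windows below carry the sequence pattern that the results turn on, and show it beside windows that lack it. Each is the 101 bases centred on the summit, on the plus strand of WBcel235 (the assembly also named ce11), from RefSeq. Pairs are named with the minus-strand gene first. Capitals mark, on either strand, 3 sequences of 6 letters and a gapped one. The first 6-mer was CCGCAC, the second was CGCACA and the third was CCGCCC, all brought up by earlier results on these same peaks. The gapped sequence was GCAA, 4 bases of any kind, then GCCGC. The first and second 6-mer overlap by 5 letters, and the gapped sequence ends in the first 4 letters of CCGCAC.
ecps-1/atx-2 (chrIII:10461257-10461357): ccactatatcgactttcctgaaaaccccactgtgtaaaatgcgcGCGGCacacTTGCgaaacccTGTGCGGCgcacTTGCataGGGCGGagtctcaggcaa
ears-2/uncp-18 (chrIV:390460-390560): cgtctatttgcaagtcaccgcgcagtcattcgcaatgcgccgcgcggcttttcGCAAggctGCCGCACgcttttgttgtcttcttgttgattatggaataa
mlcd-1/idhg-1 (chrIII:4568682-4568782): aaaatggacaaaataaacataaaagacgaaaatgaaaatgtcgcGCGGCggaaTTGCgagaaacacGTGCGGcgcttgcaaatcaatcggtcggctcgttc
rnf-121/C16C10.4 (chrIII:4171132-4171232): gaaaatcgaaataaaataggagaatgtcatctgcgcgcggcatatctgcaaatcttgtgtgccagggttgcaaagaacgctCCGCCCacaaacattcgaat
nmad-1/hach-1 (chrIII:5555096-5555196): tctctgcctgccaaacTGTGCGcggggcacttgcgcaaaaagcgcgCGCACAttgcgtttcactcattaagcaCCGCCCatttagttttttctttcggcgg
B0495.9/sre-1 (chrII:7708746-7708846): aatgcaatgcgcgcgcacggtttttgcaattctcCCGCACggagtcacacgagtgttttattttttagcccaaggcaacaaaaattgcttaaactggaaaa
snx-13/snr-1 (chrIV:17087555-17087655): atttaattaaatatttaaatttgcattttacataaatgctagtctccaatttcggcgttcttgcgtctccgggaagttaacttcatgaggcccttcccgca
E04F6.6/pcrg-1 (chrII:7200205-7200305): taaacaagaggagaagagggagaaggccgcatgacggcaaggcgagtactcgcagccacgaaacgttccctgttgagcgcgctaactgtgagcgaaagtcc
dvc-1/ima-1 (chrV:11239316-11239416): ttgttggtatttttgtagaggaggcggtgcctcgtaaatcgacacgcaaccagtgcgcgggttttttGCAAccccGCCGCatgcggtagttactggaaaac
W03C9.5/mex-1 (chrII:11967686-11967786): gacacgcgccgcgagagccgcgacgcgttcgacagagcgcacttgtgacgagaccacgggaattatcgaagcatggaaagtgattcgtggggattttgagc
The gapped sequence stood in the 3 highest-scoring windows, with 2 copies at ecps-1/atx-2. The window of rnf-121/C16C10.4 held CCGCCC and that of B0495.9/sre-1 held CCGCAC without the gapped sequence. The window of nmad-1/hach-1 held CGCACA and CCGCCC. The windows of snx-13/snr-1, E04F6.6/pcrg-1 and W03C9.5/mex-1 held none of the searched sequences, and that of dvc-1/ima-1 held the gapped sequence but none of the 6-mers.

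Aligned on their own strand, further copies of the gapped sequence at optimal members show which bases stayed alike around it. Each line is 25 bases, with GCAA and GCCGC in capitals.
gei-6/krr-1 (chrV:7231047-7231071, plus strand): ttatGCAAtgctGCCGCacgaattc
erfa-3/math-33 (chrV:11113374-11113398, plus strand): tttcGCAAgtctGCCGCatgtctct
mig-22/mtss-1 (chrIII:8768077-8768101, minus strand): ttccGCAAacacGCCGCacagttta
pvf-1/Y39A3CL.7 (chrIII:1824695-1824719, minus strand): ttttGCAAgagcGCCGCacggggtt
Y22D7AL.10/hsp-60 (chrIII:1619089-1619113, minus strand): atttGCAAgtttGCCGCacgagatt
F49C12.9/rpn-7 (chrIV:9316216-9316240, minus strand): tttcGCAAttccGCCGCacggtttt
Y62E10A.20/Y62E10A.23 (chrIV:13386229-13386253, minus strand): atttGCAAcaacGCCGCacacttgt
fbxc-44/C16A11.2 (chrII:4238074-4238098, minus strand): tttcGCAAgtgtGCCGCacgaggca
mrg-1/spcs-2 (chrIII:12874874-12874898, plus strand): aaatGCAAtagcGCCGCgcacgaaa
Y47D3A.14/aakb-2 (chrIII:11236942-11236966, minus strand): gcagGCAAtgccGCCGCacactttt
Within 100 bp of the optimal summits there were 23 copies at 21 members. AC followed 18 of the 23 copies, while a T stood before 12 and a C before 10. The 4 bases in the gap varied among the copies.

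Lines at divergent promoters were in the optimal list more often than those at one-strand promoters, which have a protein-coding start on 1 strand only. The shares are over candidate lines, and one-strand promoters themselves were not counted. Of the 1007 members 80 were in the optimal list (7.94%, 95% exact interval 6.35 to 9.79), against 139 of 6096 lines at one-strand promoters (2.28%, 1.92 to 2.69) and 127 of 22200 lines off promoters (0.572%, 0.477 to 0.680). Over all nuclear lines 2.10% were optimal. The share was 5.66 percentage points higher at divergent than at one-strand promoters (Newcombe 95% interval 4.10 to 7.53). The authors' score, whose scaling is not stated, ranged over the members from 49.2 to 942, with a median of 77.5 and a median rank of 11219, against a median rank of 14322 at one-strand promoters and 15011 over all nuclear lines. Most members therefore lay deep in a list that includes background regions by design.

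The members took a larger share of the higher ranks. They were 10 of the 100 highest-scoring lines (10%, 4.90 to 17.6), 30 of the next 200 lines, up to rank 300 (15%, 10.4 to 20.7), and 37 of the next 300, up to rank 600 (12.3%, 8.83 to 16.6). Between ranks 1000 and 2000 they were 6.80% of the lines, and between ranks 20000 and 30000 they were 2.51%. Lines at one-strand promoters followed another course, with 6% of the first 100 lines, 27.3% between ranks 300 and 600 and 19.2% between ranks 20000 and 30000.

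A member has starts on both strands, so its summit tends to be nearer to a start than a summit at a one-strand promoter. At like distance to the nearest start the divergent lines still had the higher optimal share up to 500 bp. With the summit under 100 bp away, 20 of 367 divergent lines were optimal (5.45%) against 12 of 1176 one-strand lines (1.02%). From 100 to 200 bp the counts were 36 of 325 (11.1%) against 30 of 1144 (2.62%). From 200 to 300 bp the shares were 10.5% and 5.38%, a difference of 5.11 points with an interval from 0.355 to 11.9. Beyond 500 bp only 1 of 80 divergent lines was optimal (1.25%) against 40 of 2209 one-strand lines (1.81%), and the interval of the difference, -1.78 to 4.96 points, spans 0.

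**Figure D1:**
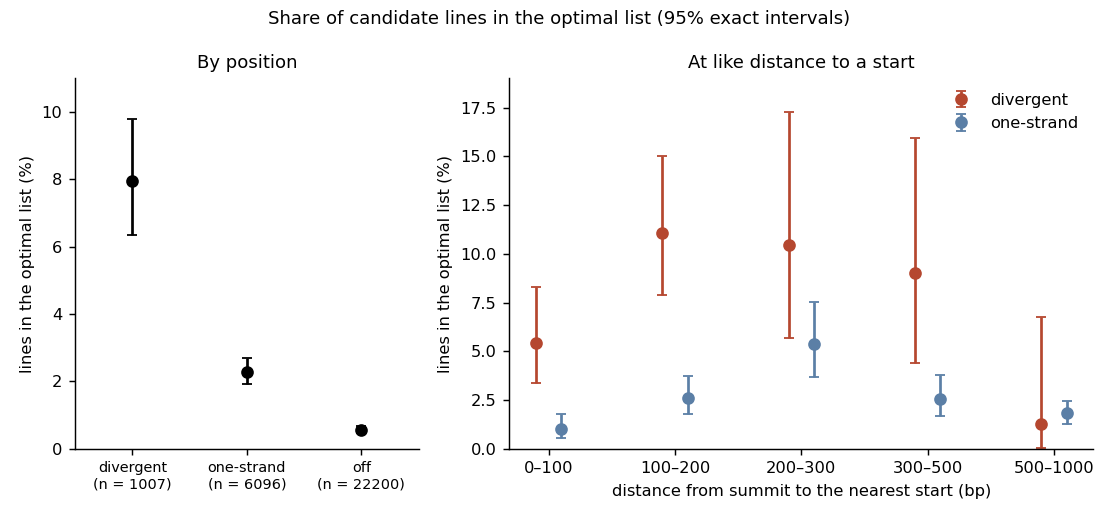
Share of pooled candidate lines that are in the optimal list, in percent, with 95% exact intervals. Left, lines at divergent promoters, at one-strand promoters and off promoters. Right, divergent and one-strand lines by distance from the summit to the nearest gene start in bp. The divergent share is 7.94% against 2.28% at one-strand promoters, and it is the higher one in each distance range up to 500 bp.

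The optimal summits sat between the 2 starts. This held for 79 of 80 optimal members (98.8%, 93.2 to 99.97) against 675 of the 927 other members (72.8%, 69.8 to 75.7). The exception was epc-1/Y111B2A.12, at rank 470, whose summit lay 37 bp inside epc-1. With the stretch between head-to-head starts cut into 3 equal parts, 36 of 80 optimal summits lay in the middle part (45%, 33.9 to 56.5) against 292 of 925 others (31.6%, 28.6 to 34.7). These shares also count summits outside the stretch. Of the summits inside it, the middle part held 36 of 79 optimal ones and 292 of 675 others, which are similar shares. The optimal summit was nearer to the plus-strand gene 42 times and nearer to the minus-strand gene 38 times.

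Distances between the starts differed little between the sets. The median was 578 bp for optimal members (quartiles 415 and 813, range 92 to 1353) and 597 bp for the others (quartiles 380 and 892). From summit to nearer start the median was 166.5 bp for optimal members and 137 bp for the others, and 20 of 80 optimal summits (25%, 16.0 to 35.9) against 351 of 927 others (37.9%, 34.7 to 41.1) lay within 100 bp of a start. These last intervals overlap at their ends. By distance between the starts, 2 of 51 members under 200 bp were optimal (3.92%), 34 of 317 from 400 to 700 bp (10.7%, 7.54 to 14.7) and 4 of 97 beyond 1200 bp (4.12%, 1.14 to 10.2), intervals that overlap in part.

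**Figure D2:**
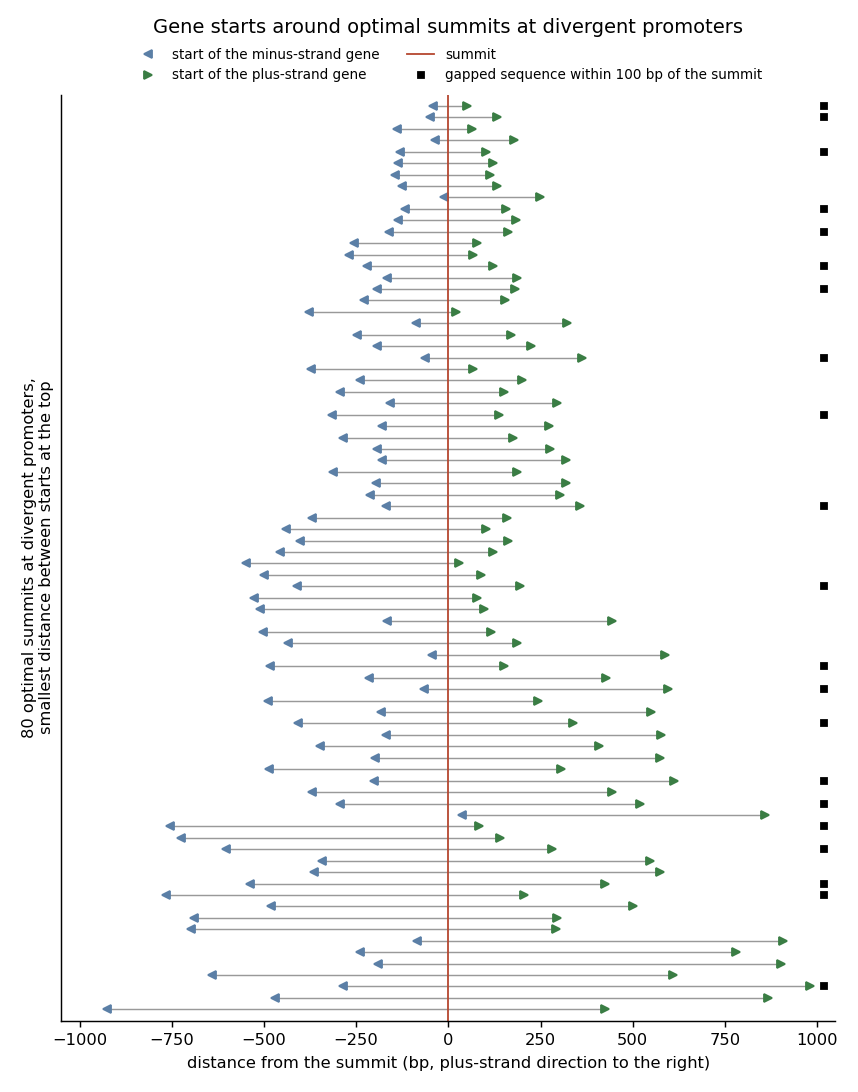
Each row is 1 of the 80 optimal summits at divergent promoters, with the summit at 0 and the starts of the minus-strand and plus-strand gene as triangles at their distance in bp, ordered by the distance between the starts. Black squares mark the 21 members with the gapped sequence within 100 bp of the summit. In 79 rows the summit lies between the starts, and the squares occur at short and at long distances.

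Counted over gene pairs, the annotation holds 2584 divergent pairs whose starts are close enough for 1 summit to serve both windows. Of these 811 had a pooled candidate (31.4%) and 79 an optimal summit (3.06%, 2.43 to 3.80), made up of 158 genes. Only dnj-29/ndua-2 had 2 optimal lines, at ranks 99 and 421. The share with an optimal summit was 0.897% of 223 pairs with starts up to 200 bp apart (0.109 to 3.20), 5.45% of 606 pairs from 400 to 700 bp (3.78 to 7.56) and 0.678% of 590 pairs beyond 1200 bp (0.185 to 1.73). Candidates of any rank were also fewer at the closest pairs (21.5%) and the widest (12.2%). In both of these ranges the windows of the 2 starts share a shorter stretch, and its part in the lower shares was not tested. Among pairs with a candidate, 2 of 48 up to 200 bp had an optimal summit. The counts were 33 of 256 from 400 to 700 bp and 4 of 72 beyond 1200 bp.

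**Figure D3:**
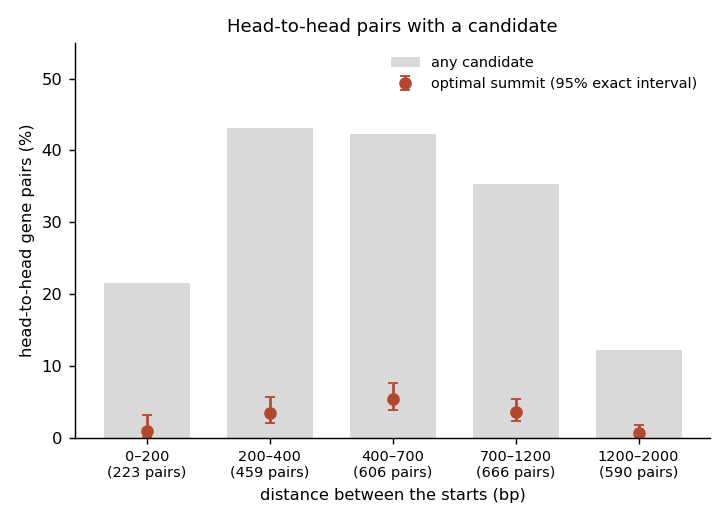
Share of annotated head-to-head gene pairs, in percent, with any pooled candidate (bars) and with an optimal summit (points, 95% exact interval), by distance between the 2 starts in bp. Both are lower at pairs up to 200 bp apart and beyond 1200 bp than in between, where the optimal share reaches 5.45%.

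The highest-scoring member, at rank 29, lay between ecps-1, a homologue of the proteasome adaptor Ecm29, and atx-2, the worm ataxin-2. Its summit at chrIII:10461307 was 756 bp upstream of ecps-1 and 82 bp upstream of atx-2, with a score of 942 in the pooled list. It ranked 33 in replicate 1 (score 621) and 38 in replicate 2 (score 324.4). The next, at rank 32, lay in the shortest stretch of all optimal members. There ears-2, a mitochondrial glutamyl-tRNA synthetase, and uncp-18, annotated as a syntaxin-binding protein, start 92 bp apart, and the summit was 42 bp from ears-2 and 50 bp from uncp-18. This region ranked 34 in replicate 1 and 46 in replicate 2. Rank 36 belonged to mlcd-1, malonyl-CoA decarboxylase, and idhg-1, a subunit of the isocitrate dehydrogenase of the citric acid cycle, with starts 883 bp apart and ranks of 37 in replicate 1 and 53 in replicate 2.

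The pairs that follow mix genes of unlike function. At rank 61 rnf-121, an E3 ubiquitin ligase, faced C16C10.4, a putative SAP18 subunit of a histone deacetylase complex. At rank 71 nmad-1, annotated as a DNA N6-methyl adenine demethylase, faced hach-1, a mitochondrial 3-hydroxyisobutyryl-CoA hydrolase. At rank 73 the uncharacterized gene B0495.9 started 86 bp from the summit and the chemoreceptor gene sre-1 908 bp from it. spe-48/spgt-1 followed at rank 74, snx-13/snr-1 at rank 80, with the Sm D3 protein of spliceosomal particles, and E04F6.6/pcrg-1 at rank 82. The summit of rank 99 separated dnj-29, a J protein, from ndua-2, a subunit of respiratory complex I. piit-1/sas-5 at rank 125 included sas-5, needed to build centrioles, and gei-6/krr-1 at rank 131 included a factor of ribosome assembly. K01G5.10/tasp-1 (rank 126), dad-1/tre-1 (rank 138), with a subunit of oligosaccharyltransferase facing trehalase, and algn-13/R10D12.13 (rank 141) completed the 15 highest.

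At the widest optimal pair, nrde-2/atad-3, the starts were 1353 bp apart and the summit, at rank 288, was 426 bp from atad-3, a mitochondrial ATPase. iff-2/F54C9.14 (1338 bp), ril-1/hda-1 (1268 bp), with histone deacetylase 1, wve-1/R06C1.4 (1249 bp) and W03C9.5/mex-1 (1093 bp) were the next widest. Among the closest starts, besides those of ears-2/uncp-18, were those of spe-48/spgt-1 (180 bp), W04C9.6/W04C9.2 (215 bp) and Y62E10A.20/Y62E10A.23 (233 bp). One pair of related products was Y22D7AL.10/hsp-60 at rank 217, which encodes the 10 kDa mitochondrial heat shock protein and its partner, the chaperonin Hsp-60, and ranked 251 in replicate 1 and 173 in replicate 2. It was singled out after its values were seen. So was F44E5.4/F44E5.5 at rank 476, 2 genes both annotated as heat shock protein 70, where like copies can share reads.

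Scores lay close together at the edge of the optimal list. The lowest optimal member was rps-19/hsr-9 at rank 635, with a score of 181.7, and the highest members outside were szy-20/C18E9.5 (rank 666, score 178.0), T26A8.4/pdtf-1 (rank 676, score 177.1) and F40F11.3/mig-38 (rank 685, score 176.3). At the edge of the promoter window, 4 of 87 members with the farther start over 900 and up to 1000 bp away were optimal (4.60%), and so were 4 of 84 lines just outside, with that start up to 1100 bp away (4.76%).

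Every optimal member had a counterpart, overlapping by at least 1 bp, in both replicate lists. The authors chose the optimal lines from both replicates, so this describes them and is no independent check. Their ranks had a lowest value of 33, a median of 288.5 and a highest of 922 in replicate 1, and 38, 353.5 and 20524 in replicate 2. Among as many top lines of each replicate as the optimal list holds were 76 of the 80 in replicate 1, 65 in replicate 2 and 61 in both. The long tail lay in replicate 2. There aman-2/F58H1.3, with alpha-mannosidase II, ranked 20524 although it ranked 384 in replicate 1, pak-2/C45B11.9 ranked 7277 against 417 and T27E9.2/ant-1.1, with an adenine nucleotide translocator, ranked 4097 against 502. These pairs were named after their values were seen. Of the 927 other members 572 had a counterpart in both lists (61.7%) and 22 in neither. Over all members 652 of 1007 did (64.7%, 61.7 to 67.7), against 57.9% of one-strand lines and 56.3% of all nuclear lines.

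**Figure D4:**
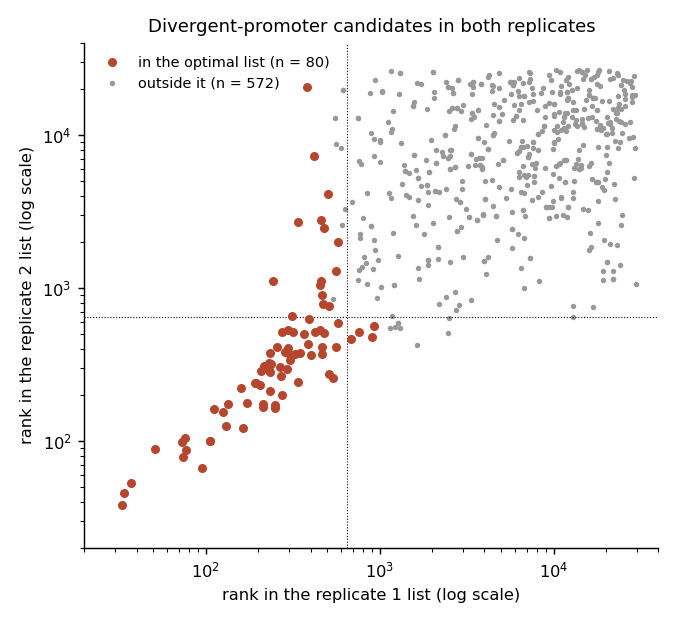
Rank in the replicate 1 list against rank in the replicate 2 list, both on log axes, for the members with a counterpart in both lists, 80 in the optimal list and 572 outside it. Neighbouring members can share a counterpart. Dotted lines stand at the rank that equals the length of the optimal list. The optimal members lie mostly below both lines, and a few reach far up in replicate 2 only.

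The short sequences were far more frequent at optimal than at other members. Within 50 bp of the summit on both sides, CCGCAC stood in 22 of 80 optimal members (27.5%, 18.1 to 38.6), 30 of 927 other members (3.24%, 2.19 to 4.59) and 2.58% of all nuclear lines. CGCACA stood in 27.5% of optimal and 4.31% of other members, against 3.37% of all nuclear lines. CCGCCC stood in 25% of optimal and 3.34% of other members, against 3.83% of all nuclear lines. At least 1 of the 3 was in 38 of 80 optimal members (47.5%, 36.2 to 59.0) and 84 of 927 others (9.06%). Because these 6-mers were picked on these peaks, their shares are descriptions and no support for the pattern. A match says only that the letters are present.

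The gapped sequence, noticed when the bases around CCGCAC were aligned, was rarer in the background. Within 100 bp of the summit it was found at 21 of 80 optimal members (26.3%, 17.04 to 37.3), 7 of 927 other members (0.755%, 0.304 to 1.55) and 124 of 29979 nuclear lines (0.414%). Among one-strand lines it was found at 14 of 139 optimal ones (10.1%, 5.62 to 16.3) and 16 of 5957 others (0.269%). GCAA stood 9 bases before CCGCAC at 19 of 31 sites near optimal members (61.3%), against 2 of 69 near other members (2.90%) and 3.85% of the 14409 copies of CCGCAC in the nuclear genome. Since the gapped sequence was noticed at these same optimal members, these shares are descriptions and no support for it. The copies lay close to the summit, all 23 within 50 bp of it, at a median of 16 bp.

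The 21 optimal members with the gapped sequence had ranks from 29 to 507 with a median of 217, and the 59 without it had ranks from 61 to 635 with a median of 343. Of those with it 16 were in the higher-scoring part of the optimal list, cut at its middle rank, against 27 of those without. Their median rank was 235 in replicate 1 and 212 in replicate 2, against 325 and 384 without it. The sequence was noticed at optimal members, so these ranks too are only a description. Among the pairs with a copy were Y22D7AL.10/hsp-60, dvc-1/ima-1, with importin alpha, F49C12.9/rpn-7, with a proteasome subunit, erfa-3/math-33, with the translation release factor eRF3, and ril-1/hda-1.

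Seen from the genome, the gapped sequence had 825 nuclear copies on both strands. Of the 45 copies in divergent promoter windows 32 lay within 100 bp of a pooled summit (71.1%) and 24 within 100 bp of an optimal one (53.3%, 37.9 to 68.3). Of 143 copies in one-strand windows 13 lay that near an optimal summit (9.09%, 4.93 to 15.04), and of 637 copies off promoters 3 did (0.471%, 0.0972 to 1.37). Because the sequence was found by looking at these same optimal summits, the shares describe it and are no support for it. Copies whose surrounding 33 bases recur elsewhere were 2 of the 45 divergent ones (4.44%), 35 of the 143 one-strand ones (24.5%) and 172 of the 637 off promoters (27.0%). The part that reads from repeated sequence play in this difference was not tested.

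**Figure D5:**
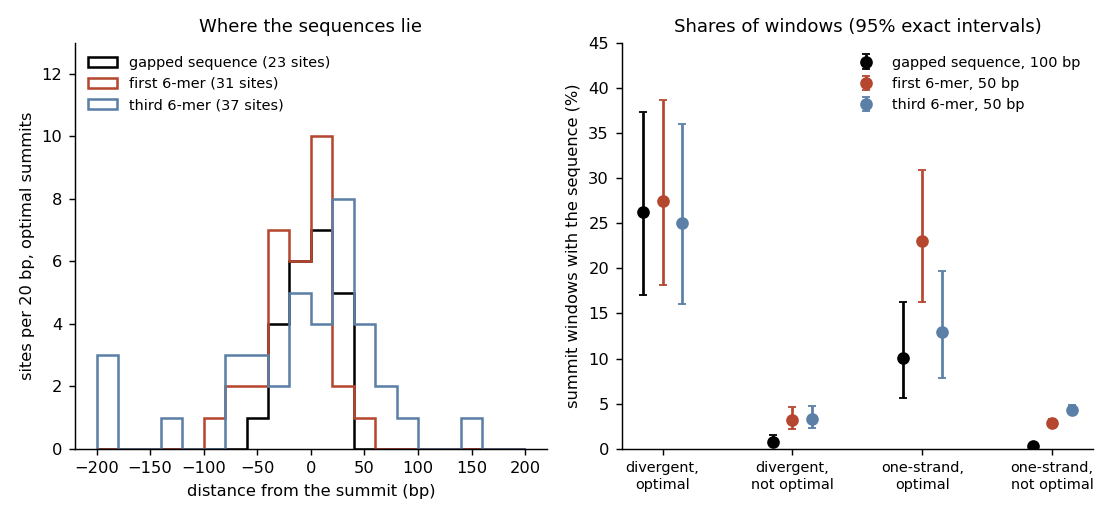
Left, number of copies per 20 bp at distances of up to 200 bp from optimal summits at divergent promoters, for the gapped sequence (GCAA, 4 bases, GCCGC), the first 6-mer (CCGCAC) and the third (CCGCCC). Right, share of summit windows in percent that hold each, with 95% exact intervals, within 100 bp for the gapped sequence and 50 bp for the 6-mers. All 3 are more frequent at optimal than at other lines, and copies of the gapped sequence lie within 50 bp of the summit.

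Base composition moved with membership of the optimal list. The summit windows of optimal members had a median G+C content of 49.0%, those of other members 38.6% and those of all nuclear lines 40.6%. This was not particular to divergent promoters. At one-strand promoters the medians were 48.5% for optimal and 40.6% for other lines, and off promoters they were also 48.5% and 40.6%. Among members with a G+C content inside the middle range of the optimal ones (42.3 to 55.4%), CCGCAC stood in 15 of 43 optimal and 14 of 329 other members (34.9% against 4.26%), and the gapped sequence in 15 of 43 against 3 of 329 (34.9% against 0.912%). Both sequences came from these same peaks, so these shares too are descriptions and no test of base composition. In windows of at least 50% G+C, 39 of 155 divergent lines were optimal (25.2%, 18.5 to 32.7) against 60 of 1030 one-strand lines (5.83%, 4.47 to 7.44). Below 35% the shares were 1.83% and 0.593%.

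Gene lists were formed by symbol. Among all 19971 nuclear protein-coding genes 0.791% were in a divergent pair with an optimal summit and 8.36% in a pair with any member. Translation factors stood highest, with 6 of 41 genes in an optimal pair (14.6%, 5.57 to 29.2). They were erfa-3 (rank 183), eif-3.I, eif-3.E and eif-3.D (ranks 382, 448 and 627), which are subunits of initiation factor 3, iff-2 (rank 525), a homologue of eIF5A, and eef-1A.1 (rank 544), an elongation factor. Translation factors were also often in a member pair of any rank, 18 of 41 (43.9%). The lists are small, and a list whose genes often start back to back has more chances to be counted.

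Chaperones had 4 of 69 genes in an optimal pair (5.80%, 1.60 to 14.2), namely dnj-29, hsp-60, dnj-19 and cct-8, a subunit of the cytosolic chaperonin. Nuclear transport had 2 of 41, ima-1 (rank 231) and the nucleoporin gene npp-14 (rank 291). The list of cell cycle symbols had 4 of 88, namely sas-5, cdk-9 (rank 304), mcm-10 (rank 416) and knl-3 (rank 442). Of these, mcm-10 is a replication factor and knl-3 a kinetochore gene. By contrast, cdk-9 phosphorylates RNA polymerase II and was counted by its symbol. Ribosomal protein genes had 2 of 68, rpl-15 (rank 270) and rps-19, although 31 of the 68 were in a member pair (45.6%). The symbol patterns leave out genes that belong by their RefSeq product, as seen only afterwards, so the counts are low for some lists. In optimal pairs these include rpl-18A (rank 328), the chaperone genes Y22D7AL.10, F44E5.4 and F44E5.5, ndua-2, T27E9.2 and F29B9.11 of the respiratory chain, the splicing helicase mog-5 and Y62E10A.23, a Mediator subunit.

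Lists with 1 gene in an optimal pair had wide intervals that all held the share of all genes. They were aminoacyl-tRNA synthetases (ears-2, 1 of 33, 3.03%), proteasome (rpn-7, 1 of 33, 3.03%), respiratory chain (mev-1, 1 of 51, 1.96%) and splicing (snr-1, 1 of 51, 1.96%). Mitochondrial ribosomal proteins (mrpl-39, 1 of 71, 1.41%), RNA polymerase factors (mdt-19, 1 of 73, 1.37%) and nuclear hormone receptors (nhr-47, 1 of 269, 0.372%) also had 1. Vesicle traffic had 2 of 110, vps-51, which faced the retinoblastoma homologue lin-35 at rank 203, and arf-6. Of the chemoreceptor genes 3 of 1322 were in an optimal pair (0.227%, 0.0468 to 0.662), an interval below the share of all genes. Only 34 of the 1322 were in a member pair of any rank (2.57%), against 8.36% of all genes. The chemoreceptor genes therefore had fewer chances to be counted. The list of C-type lectin, F-box, math, bath and btb symbols had 4 of 650 (0.615%, 0.168 to 1.57). This was close to the 0.791% of all genes in an optimal pair. One of the 4, math-33, is annotated as a ubiquitin hydrolase. Core histones (72 genes), homeobox factors (86) and collagens (178) had 0, with upper exact bounds of 4.99%, 4.20% and 2.05%, all above the share of all genes. By these symbol patterns, which miss genes without a family symbol, 47 of the 79 pairs had no gene in any list. By RefSeq product names, 12 of 158 genes in optimal pairs were called mitochondrial (7.59%, 3.99 to 12.9), against 35 of 1511 genes in other member pairs (2.32%) and 233 of all 19971 genes (1.17%), a word chosen after values were seen.

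The X chromosome had no optimal member. There 0 of 48 members were optimal, with an upper exact bound of 7.40%, against 80 of 959 on the autosomes (8.34%, 6.67 to 10.3). The intervals overlap. The best X member ranked 1275. Lines at one-strand promoters were optimal at 29 of 984 on X (2.95%) and 110 of 5112 on the autosomes (2.15%). Of 172 annotated divergent pairs on X 38 had a candidate and 0 an optimal summit, with an upper exact bound of 2.12%. Over all chromosomes 79 of 2584 pairs had an optimal summit (3.06%, 2.43 to 3.80), and 31.4% had a candidate. Counted over pairs, the interval for X therefore lay below that for all chromosomes. It overlapped those of II (1.94%, 0.889 to 3.64), IV (2.92%, 1.56 to 4.94) and V (2.24%, 1.26 to 3.67). It lay below those of I (4.56%, 2.81 to 6.95) and III (5.58%, 3.53 to 8.33). Among the autosomes the share of members in the optimal list ran from 5.17% on II (2.39 to 9.59) to 9.95% on III (6.34 to 14.7), with overlapping intervals.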

How the data were processed

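ChIP-seq regions of 2 biological replicates of 1 group were used as deposited on assembly ce11. Candidates and background were called by the authors, per the deposited read-me texts, for each replicate and for the pooled alignments against 1 control alignment, and the optimal list was derived with the irreproducible discovery rate. The aligner, caller and threshold, not given in the sources used here, could not be taken into account. The deposited lines give the authors' score (unit signal, scaling not stated), used only for ranks and description within its list, −log10 of the authors' q-value, shared at its top value by 581 optimal lines and not used for ordering, and the summit as an offset. Depth is unknown, as these lists carry regions and scores without read numbers. The replicate lists held 30000 and 26661 lines.

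Gene starts were the 5′ ends of RefSeq gene features of WBcel235, the same assembly. The 1107 nuclear tRNA, snoRNA, snRNA and rRNA genes served to leave regions out. For each member the nearest start on each strand named the pair. A nuclear line was optimal when the optimal list held the same region and summit. Shares carry exact (Clopper-Pearson) intervals and differences of shares Newcombe intervals, both over lines, which are not replicates. Sequences were searched on both strands. Python 3.11.15, numpy 2.4.6, pandas 2.3.3, scipy 1.17.1 and matplotlib 3.10.9 were used, and the code was checked on simulated regions.

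The members, the 18 gene lists and the 6-mers were chosen with earlier results of these data known. Named were the pairs of the 15 highest-scoring optimal members, the 5 with the smallest and the 5 with the largest distance between starts, up to 3 genes per list, and the 3 highest members outside the optimal list. A pair that this rule names is not reported here. All genes of the translation factor, chaperone and cell cycle lists in optimal pairs, and the pairs shown with the gapped sequence were also named after their values were seen. Of the optimal members not on chromosome I, sequence was shown for the 8 highest-scoring and for the 2 next ones without the 6-mers. The gapped sequence, the G+C comparison and the counts per chromosome under each replicate were added after seeing the data.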

Additional observations from a re-analysis of the deposited data

How the results depend on the processing

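No paired analysis was possible because the series has 1 group. Of 82 values recomputed under alternatives, 67 stayed inside the interval of the reported value (for the number of members, within 1.5 times) and 15 did not, and the difference between divergent and one-strand promoters changed sign in none. When a promoter reached only 500 bp upstream and 100 bp downstream, there were 481 members, 10.6% of them optimal, with a median rank of 9206, a median of 404 bp between the starts and of 107 bp to the nearer start, 100% of optimal summits between the starts, and 67.8% of members with a counterpart in both replicates. These shifts follow in part from the narrower window itself. With only the higher-scoring part of the optimal list, cut at its middle rank, counted as optimal, 4.27% of members were optimal, 1.66% of annotated pairs held one, the difference to one-strand promoters was 3.52 points (2.40 to 4.96), 100% of such summits lay between the starts and 39.5% of their windows held CCGCAC. Counterparts in both replicates were found for 54.4% of members when each region had to be covered to at least 0.5 of its length and for 39.9% when summits had to lie within 100 bp. Leaving out each replicate in turn, with as many top lines of the other list taken as optimal, gave shares between the starts of 94.7% and 100%, an optimal share of 8.50% to 9.26%, a difference of 6.43 to 6.92 points and 821 to 988 members. The share with counterparts in both lists has no value there. Chosen after seeing the data, the gapped sequence was at 26.3% of such members without replicate 1, 25% without replicate 2 and 37.2% in that higher-scoring part. Without replicate 1, 1 of 33 X members was among those top lines (3.03%). Starts of every mRNA, a distance of 500 bp to small RNA genes, 1 line per region, head-to-head starts only and sequence windows of 25 or 100 bp moved no value out of its interval. The number of regions limits the small shares, and depth is unknown.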

Other observations

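Other annotated noncoding genes lay within 200 bp of few members. Unclassified ncRNA genes were near 7 of 80 optimal members (8.75%), 75 of 927 other members (8.09%) and 8.29% of all nuclear lines, and a miRNA gene was near 1 optimal member. Neither C38D4.7 nor unc-119, both carried by the transgene, was in a member pair. Among the optimal members, 6 had further protein-coding starts in the window beside the pair named.

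At one-strand promoters and off promoters CCGCAC and CCGCCC were also more frequent among optimal lines. CCGCAC stood in 32 of 139 optimal lines at one-strand promoters (23.0%, 95% exact interval 16.3 to 30.9) and 168 of 5957 others (2.82%), and CCGCCC in 18 of 139 (12.9%, 7.86 to 19.7) against 258 of 5957 (4.33%). Off promoters CCGCAC stood in 9 of 127 optimal lines (7.09%, 3.29 to 13.0) and 2.27% of others, and CCGCCC in 16 of 127 (12.6%, 7.38 to 19.7) and 3.48%. CGCACA stood in 32 of 139 optimal lines at one-strand promoters (23.0%, 16.3 to 30.9) and 216 of 5957 others (3.63%). Off promoters it stood in 8 of 127 optimal lines (6.30%) and 3.01% of others, which lies inside the interval of the optimal share. Near small RNA genes CCGCAC stood in 6 of 283 optimal lines (2.12%, 0.782 to 4.56), against 2.58% of all nuclear lines. CGCACA stood there in 16 (5.65%, 3.27 to 9.02) against 3.37%, and CCGCCC in 21 (7.42%, 4.65 to 11.12) against 3.83%. Of these 6-mers, only CCGCCC had an interval there above the share of all nuclear lines. There 0 of 283 optimal lines had the gapped sequence within 100 bp, with an upper exact bound of 1.30%. That bound lies above the 0.414% of all nuclear lines.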
